A study of Mus musculus with 12 samples.

Results

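The 10 genes described here, Hopx, Ager, Pdpn, Aqp5, Cav1, Rtkn2, Clic5, Igfbp2, Akap5 and Emp2, are markers of type I alveolar cells, the thin flat cells through which the alveolus exchanges gas. They were taken by name, and 19 probe sets annotated to these genes alone represent them among the 18193 genes measured. Type II alveolar cells make surfactant and serve as progenitors of type I cells. In culture they are known to flatten, to lose surfactant gene expression and to gain type I markers, so these genes are commonly read as a measure of that passage. The YAP and TAZ coactivators are known regulators of the type I fate.

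RNA of type II cells from mouse lungs was profiled on 12 Affymetrix arrays after 7 days of culture without further treatment, on collagen with keratinocyte growth factor. Cells lacking Gnaq and Gna11 and cells lacking Gna11 alone formed one line of comparison, and cells lacking Gna12 and Gna13 and cells lacking Gna12 alone formed the other, with 3 arrays per genotype (the sample titles write the double knockouts as Gnaq/Ga11 and Gna12/Ga13). These genes encode alpha subunits of the heterotrimeric G proteins. Those of Gnaq and Gna11 act on phospholipase C and calcium, and those of Gna12 and Gna13 act on the actin cytoskeleton. Every group lacked Gna11 or Gna12, and no wild-type array was among the samples analysed, so each double knockout was set against a single knockout. The labels do not give the mice's age or sex, the promoter of any Cre used, or whether replicates came from separate animals, so p-values reflect the scatter of the deposited arrays, part of which may be technical. Levels are the deposited RMA values, read as log2, and a gene with several probe sets is given by the one with the highest mean.

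The arrays carried RNA of the labelled cell type and of other cells. Of 14 measured type II markers, 13 lay above the median of the array in all 12 arrays, and the surfactant gene Sftpc read 12.78 to 13.38. Some airway markers were as high. Of 10 measured, 8 lay above the median in all 12 arrays, and the airway secretory gene Scgb1a1 read 13.12 to 13.28. These levels thus do not single out type II cells. The 20 pan-leukocyte genes averaged 9.51 to 9.55 in Gnaq/Gna11 arrays, 8.52 to 9.14 in Gna11 arrays, 9.30 to 10.09 in Gna12/Gna13 arrays and 9.69 to 10.22 in Gna12 arrays. In such mixed RNA, fewer cells of a type and less RNA per cell cannot be told apart. The Gapdh control probe sets differed between their 3′ and 5′ ends by 3.46 to 4.03 in Gna11 arrays and by 2.67 to 3.33 in all others. One array of each genotype but Gnaq/Gna11 stood apart: the Y-linked gene Eif2s3y read 3.56, 3.07 and 3.30 in replicate 2 of the Gna11, Gna12/Gna13 and Gna12 cells, against 6.91 to 7.37 in their replicates 1 and 3. It read 3.32 to 3.54 in all 3 Gnaq/Gna11 arrays, so low Eif2s3y and the loss of Gnaq with Gna11 cannot be told apart there.

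The promoters of the 3 markers with the widest range of levels over the arrays, Igfbp2, Clic5 and Cav1, are shown because the results below turn on these genes. Each is the 250 bases before the annotated start in the RefSeq promoter table of GRCm38.p6. Capitals mark matches to the motifs searched, here the GC box (GGGCGG) and, near the left end of the Cav1 window, the TATA box (TATAAA), each on either strand.
Igfbp2, chr1:72824230-72824479, + strand: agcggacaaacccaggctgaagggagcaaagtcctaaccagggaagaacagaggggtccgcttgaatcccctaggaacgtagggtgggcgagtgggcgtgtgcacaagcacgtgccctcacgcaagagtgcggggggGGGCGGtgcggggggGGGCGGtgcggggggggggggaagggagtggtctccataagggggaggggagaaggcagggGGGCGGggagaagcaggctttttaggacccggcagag
Clic5, chr17:44188322-44188571, + strand: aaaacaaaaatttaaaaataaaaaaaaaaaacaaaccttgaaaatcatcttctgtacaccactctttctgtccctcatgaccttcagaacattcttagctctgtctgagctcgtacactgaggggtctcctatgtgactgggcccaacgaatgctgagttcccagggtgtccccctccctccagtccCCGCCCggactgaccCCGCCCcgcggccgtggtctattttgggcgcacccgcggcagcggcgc
Cav1, chr6:17306085-17306334, + strand: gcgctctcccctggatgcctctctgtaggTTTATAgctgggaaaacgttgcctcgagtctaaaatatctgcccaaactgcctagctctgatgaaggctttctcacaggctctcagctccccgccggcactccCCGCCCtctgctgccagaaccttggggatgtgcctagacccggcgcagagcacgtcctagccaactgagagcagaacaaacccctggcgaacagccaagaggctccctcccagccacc

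Of the 10 markers, 9 had promoters in that table, with 12 windows, and Rtkn2 had none. A total of 12 motifs were searched on both strands after results of these data were known. The GC box was in 6 of the 12 windows, or 50% of them, against 32.7% of all 32851 windows. The CCAAT box was in 4 (33.3% against 33.8%), at Hopx, Akap5 and Ager. The TATA box was in the Cav1 window alone (8.33% against 12.4%), and the AP-1 motif TGACTCA in 1 Igfbp2 window that starts elsewhere and is not shown (8.33% against 4.46%), where it also makes up the match to the open form TGANTCA. The other 7 had no match in the markers' windows. They were the TEAD motif, spelled GGAATG, which 12.6% of all windows held, and the NKX2-1 motif, spelled CAAGTG, at 11.6%. A longer NKX2-1 form was spelled CACTTGA and stood in 2.68% of all windows. The GATA motif was searched as AGATAA, found in 9.99% of all windows, and the KLF motif as GGGTGTG, found in 6.93%. The CEBP motif was searched as TTGCGCAA, found in 0.164%, and the ETS motif as CCGGAAG, found in 6.91%. A match, or its lack, concerns these letters in short windows only.

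Across the 12 arrays 8 markers lay above the array median everywhere, Rtkn2 in 10 arrays and Akap5 in 5. This is a low bar, since by mean level 12032 of the 18193 genes reached the median of all probe sets. No marker was called between genotypes. The fit covered all genes with limma and adjusted p-values by Benjamini-Hochberg, with a call at an adjusted p under 0.05. Loss of Gnaq on top of Gna11 gave 0 of 10 calls while 1.84% of all genes were called. Loss of Gna13 on top of Gna12 gave 0 of 10 calls, with 0% of all genes called at a smallest adjusted p of 0.128 (820 genes had an unadjusted p under 0.05). The difference between these differences gave 0 of 10 calls (0.0715% of genes), Gna12 minus Gna11 cells gave 0 of 10 (2.82%), and Gna12/Gna13 minus Gnaq/Gna11 cells gave 0 of 10 (6.10%). At an unadjusted p under 0.05 the markers numbered 0, 0, 0, 1 and 1 in the same order.

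**Figure D1:**
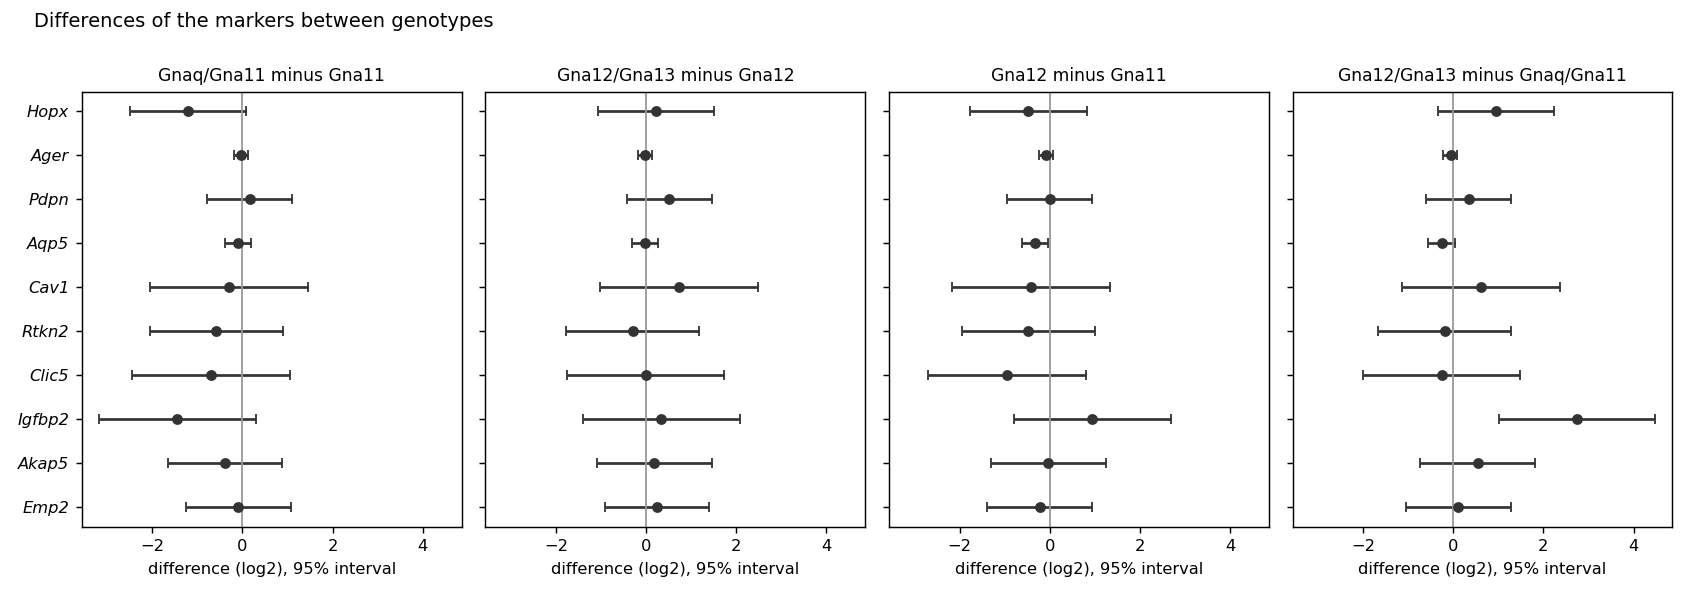
Difference in level (log2, horizontal axis) of each of the 10 markers in 4 comparisons between genotypes, with the 95% interval of the limma fit as bars. The bars cross 0 for every marker except Aqp5 in Gna12 minus Gna11 and Igfbp2 in Gna12/Gna13 minus Gnaq/Gna11, and neither of these was called.

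Igfbp2, a secreted binding protein of insulin-like growth factors that marks mature type I cells in mice, had the widest differences. It read 9.43, 7.43 and 8.95 in the Gna12/Gna13 arrays, against 5.50, 5.89 and 6.18 in the Gnaq/Gna11 arrays. The groups did not overlap, and the means were 8.60 ± 1.04 and 5.86 ± 0.341 (SD, n = 3 each). The limma difference was 2.74 ± 0.790 (SE) on the log2 scale, a 6.69-fold higher level, with a 95% interval of 1.01 to 4.48 and an adjusted p of 0.0677. Levels near 5 carry little signal over background in RMA values, and the Gnaq/Gna11 arrays lay close to that, so the fold depends on this floor. Over 24 other settings the adjusted p ran from 0.0189 to 0.185 and was under the threshold in 6 of them, and with Eif2s3y as a covariate the difference was 1.51 (adjusted p = 0.116). The single knockouts read 7.79, 7.44 and 9.54 in Gna12 cells and 8.11, 5.45 and 8.36 in Gna11 cells, so the 1 low Gna11 array was replicate 2. Gnaq/Gna11 minus Gna11 was -1.45 ± 0.790 (adjusted p = 0.404), and the arrays overlapped through that replicate. In the order of group means, Gna12/Gna13, Gna12, Gna11 and Gnaq/Gna11, no neighbouring groups were apart.

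Hopx, an atypical homeodomain protein of the type I lineage that does not bind DNA itself, read 7.23, 7.70 and 7.17 in Gnaq/Gna11 arrays, against 9.47, 7.00 and 9.23 in Gna11 arrays. Replicates 1 and 3 of Gna11 lay above all Gnaq/Gna11 arrays and replicate 2 below them. The difference was -1.20 ± 0.586 (SE, adjusted p = 0.345). Gna12/Gna13 arrays read 8.56, 7.65 and 8.74, and Gna12 arrays 7.99, 7.51 and 8.80, with overlap and a difference of 0.22 ± 0.586 (adjusted p = 1). Without replicate 2 of the Gna11, Gna12/Gna13 and Gna12 cells, a setting added after the values were seen, Hopx was called lower in Gnaq/Gna11 than in Gna11 cells (-1.99, adjusted p = 0.0371) and Igfbp2 higher in Gna12/Gna13 than in Gnaq/Gna11 cells (3.33, adjusted p = 0.0189). These were the only calls among the markers in that setting, in which all Gnaq/Gna11 arrays had low Eif2s3y and all others high. Of all 18193 genes, 82 were called there in Gnaq/Gna11 minus Gna11 and 381 in Gna12/Gna13 minus Gnaq/Gna11. The second Hopx probe set, at 4.34 to 5.92, had the opposite signs: 0.33 for Gnaq/Gna11 minus Gna11 and -0.82 for Gna12/Gna13 minus Gnaq/Gna11.

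Ager, the receptor for advanced glycation end products, and Aqp5, a water channel of the apical membrane, varied least. Ager read 13.41 to 13.44 in Gnaq/Gna11 arrays, 13.39 to 13.51 in Gna11 arrays, 13.18 to 13.47 in Gna12/Gna13 arrays and 13.26 to 13.47 in Gna12 arrays. The deposited values do not tell whether such bright probe sets were saturated. Aqp5 read 12.21, 12.08 and 12.50 in Gna12 arrays, against 12.56, 12.49 and 12.72 in Gna11 arrays. The Gna12 values were lower with an overlap of 1 array, and the difference was -0.33 ± 0.131 (SE, adjusted p = 0.186). Pdpn, a surface glycoprotein that lines the type I membrane, read 12.38, 12.21 and 12.26 in Gna12/Gna13 arrays, against 11.81, 12.10 and 11.90 in Gnaq/Gna11 arrays. The groups were apart by 0.35 ± 0.430 (SE, adjusted p = 0.700). Pdpn and Igfbp2 were thus 2 of 10 markers whose arrays did not overlap in that comparison, against 28.4% of all genes. No marker was apart in Gnaq/Gna11 against Gna11 (19.7% of genes), Gna12/Gna13 against Gna12 (11.3%) or Gna12 against Gna11 (26.3%).

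Cav1, the main coat protein of caveolae, read 8.81, 9.13 and 9.21 in Gnaq/Gna11 arrays, against 10.33, 7.31 and 10.38 in Gna11 arrays. It read 9.91, 8.77 and 10.28 in Gna12/Gna13 arrays, against 8.61, 7.91 and 10.28 in Gna12 arrays. In the Gna11, Gna12/Gna13 and Gna12 groups replicate 2 was lowest. Clic5, a chloride intracellular channel protein bound to cortical actin, read 9.28, 9.87 and 9.79 in Gnaq/Gna11 arrays, against 11.36, 8.64 and 11.03 in Gna11 arrays. It read 10.23, 8.0 and 9.95 in Gna12/Gna13 arrays, against 9.28, 8.26 and 10.64 in Gna12 arrays. Again replicate 2 was lowest in these groups, and the double minus single differences were -0.70 ± 0.794 and 0.00 ± 0.794 (SE). Emp2, a tetraspan protein of the cell membrane, read 10.03, 10.50 and 10.56 in Gnaq/Gna11 arrays, against 10.90, 9.32 and 11.15 in Gna11 arrays. It read 10.96, 9.61 and 10.86 in Gna12/Gna13 arrays and 10.14, 9.48 and 11.09 in Gna12 arrays. The Emp2 differences in the 4 comparisons of groups were at most 0.24 in size, each with an SE of 0.528.

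Rtkn2, a member of the rhotekin family, read 5.53 to 6.18 in Gnaq/Gna11 arrays, 5.05 to 7.42 in Gna11 arrays, 4.75 to 6.32 in Gna12/Gna13 arrays and 5.18 to 7.31 in Gna12 arrays. Akap5, an anchoring protein of protein kinase A, read 4.70 to 4.92, 4.19 to 6.01, 4.09 to 6.17 and 4.49 to 6.05 in the same groups. Akap5 lay near the array medians of 5.032 to 5.11, where RMA values carry little signal over background. Rtkn2 was close to them in many arrays but read 6.83 and 7.42 in Gna11 replicates 1 and 3 and 7.31 in Gna12 replicate 3. The median difference of the 10 markers was -0.34 for Gnaq/Gna11 minus Gna11 (all genes -0.03) and 0.20 for Gna12/Gna13 minus Gna12 (all genes 0.00). It was -0.27 for Gna12 minus Gna11 (all genes -0.06) and 0.23 for Gna12/Gna13 minus Gnaq/Gna11 (all genes -0.04). With Eif2s3y as a covariate 8 of 10 markers turned to a positive difference or kept one in Gnaq/Gna11 minus Gna11. In that fit 3 were called lower in Gna12/Gna13 than in Gnaq/Gna11 cells: Ager by -0.19 (adjusted p = 0.0110), Aqp5 by -0.45 (adjusted p = 0.0175) and Clic5 by -1.62 (adjusted p = 0.0267). Over its 24 other settings this comparison called 369 to 1640 of all 18193 genes, and the main fit called 6.10% of them. The count of all genes for the covariate fit alone is not given here, so 3 of 10 cannot be set against a share. Eif2s3y was low in all Gnaq/Gna11 arrays, so its slope rests on replicate 2 of the other groups. These calls thus carry the replicate 2 pattern described below. Without the covariate this Clic5 probe set differed by -0.26, and the other Clic5 probe sets by 0.91, 0.51 and 0.52.

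**Figure D2:**
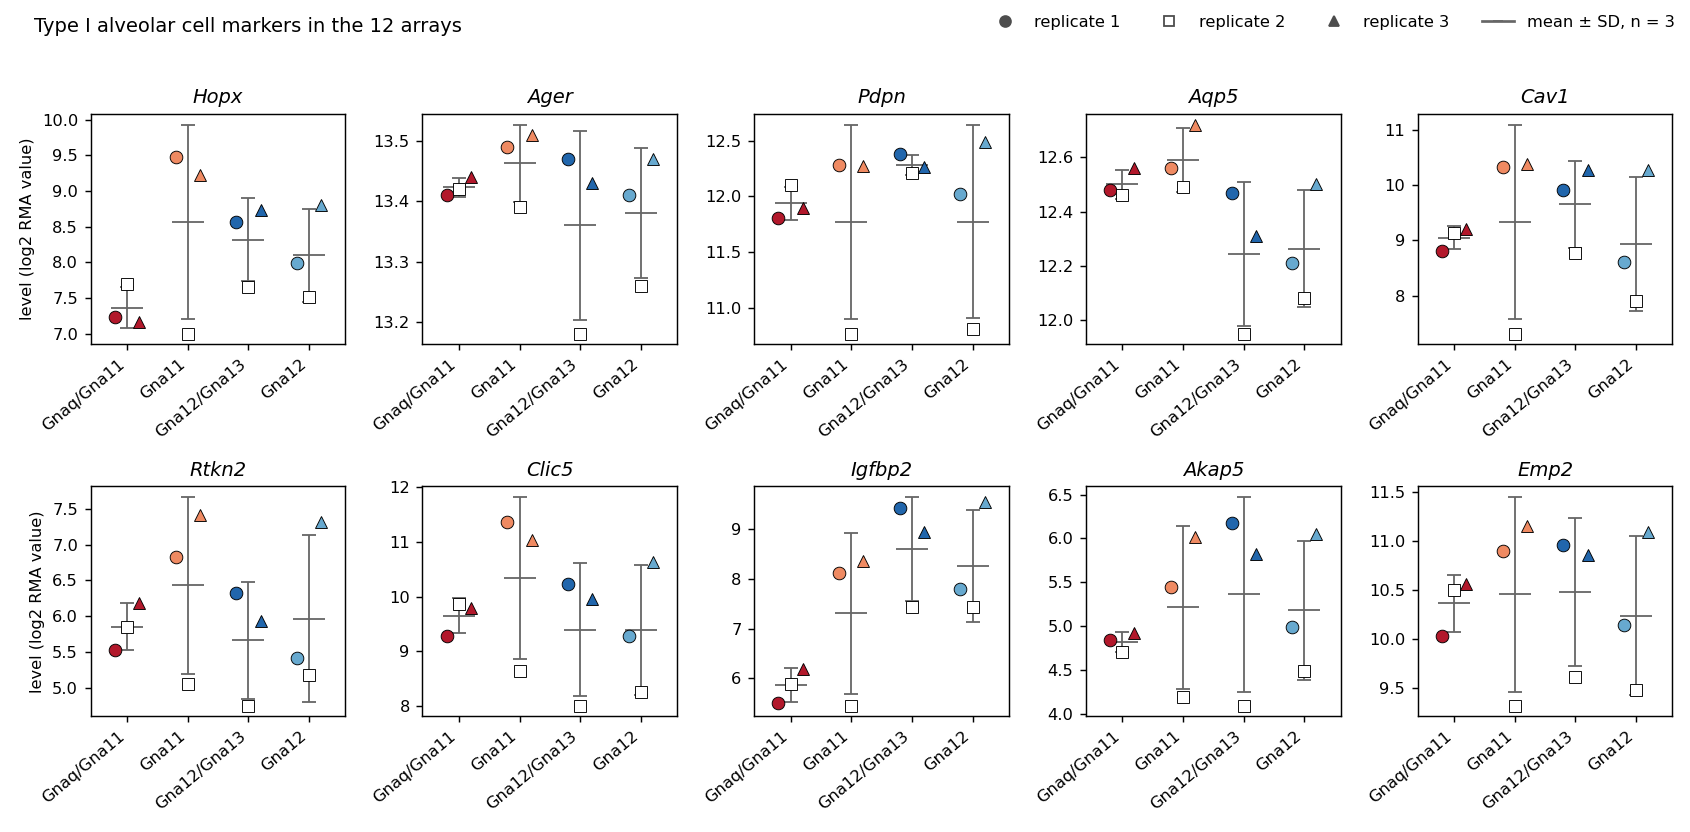
Level (log2 RMA value, vertical axis, a scale of its own per gene) of each marker in every array by genotype, with symbols for the replicate and lines for the mean ± SD (n = 3). The open squares of replicate 2 are the lowest point for all 10 markers in Gna11, Gna12/Gna13 and Gna12 cells, and for 2 markers in Gnaq/Gna11 cells.

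The spread within genotypes had a shared form. By the probe set that represents each gene, replicate 2 was the lowest array for 10 of 10 markers in Gna11, in Gna12/Gna13 and in Gna12 cells, while 5.94% of all genes had replicate 2 lowest in all 3 groups. In Gnaq/Gna11 cells it was lowest for 2 markers, Aqp5 and Akap5. The replicate 2 arrays of the other 3 groups are the same arrays that stood apart in Eif2s3y. Not every further probe set followed. The second Clic5 probe set read 7.61, 7.74 and 9.35 in Gna12 arrays, so replicate 2 was not lowest there. Nor was it for further probe sets of Clic5, Akap5 and Emp2 with means of 4.92, 4.58 and 4.97. The mean level of the 10 markers was 8.36, 8.76 and 8.64 in replicate 2 of Gna11, Gna12/Gna13 and Gna12 cells, against 9.18 to 10.22 in their replicates 1 and 3. Gnaq/Gna11 arrays, at 8.89, 9.16 and 9.19, lay above all 3 of these replicate 2 arrays, and only Gna12 replicate 1 among the other 6 arrays was as low. The median SD of the markers was 0.252 in Gnaq/Gna11, 1.11 in Gna11, 0.767 in Gna12/Gna13 and 0.834 in Gna12 cells, against 0.181, 0.211, 0.173 and 0.169 for all genes.

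**Figure D3:**
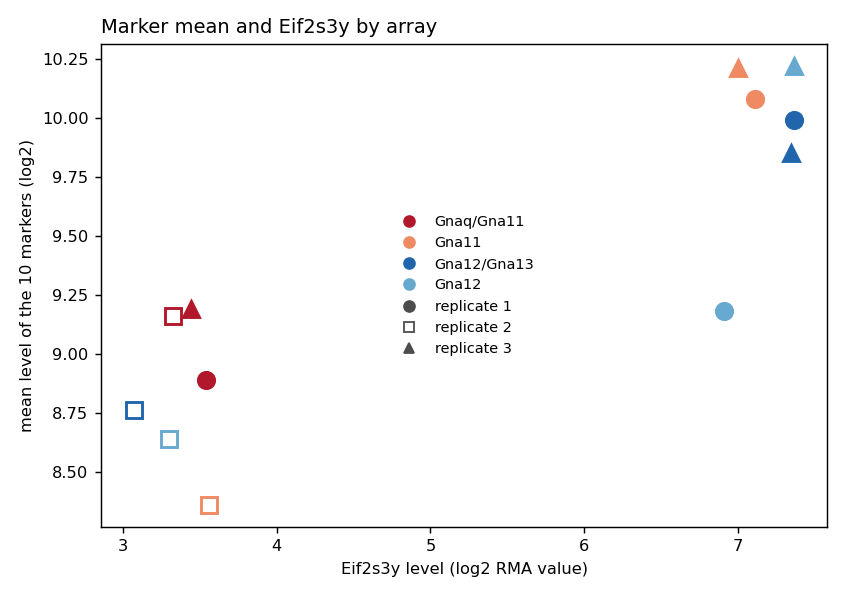
Mean level of the 10 markers (log2, vertical axis) against the level of Eif2s3y (log2 RMA value, horizontal axis) in the 12 arrays, coloured by genotype, with open squares for replicate 2. The 6 arrays with Eif2s3y at 3.56 or below have marker means of 8.36 to 9.19, and the 6 with Eif2s3y at 6.91 or above have marker means of 9.18 to 10.22.

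Replicate 2 minus replicates 1 and 3, averaged over the Gna11, Gna12/Gna13 and Gna12 groups, was negative for all 10 markers, with a median of -1.45 (all genes 0.02). It ran from -0.18 ± 0.0295 for Ager to -2.11 ± 0.283 for Clic5, with -1.97 ± 0.378 for Cav1 and -1.92 ± 0.387 for Igfbp2 (limma SEs). This contrast was set up after the pattern had been seen in the same arrays, so its test lends no independent support. It called 4 of 10 markers lower (Ager, Clic5, Akap5 and Emp2) against 0.291% of all genes, and between 0 and 4 markers under 10 other settings. The X-linked RNA Xist read 7.05, 6.72 and 6.54 in replicate 2 of Gna11, Gna12/Gna13 and Gna12 cells, and 7.29 to 9.31 in Gnaq/Gna11 arrays. In the other arrays it read 5.73 to 6.27. The labels give no sex, and its part in the pattern was not tested. The replicate number, Eif2s3y, Xist and whatever else distinguished these arrays cannot be told apart.

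Among the arrays with low Eif2s3y, the 3 Gnaq/Gna11 arrays lay above the 3 replicate 2 arrays of the other genotypes for 6 of 10 markers: Ager, Cav1, Rtkn2, Clic5, Akap5 and Emp2. The same held for 10.6% of all genes. For the other 4 the values overlapped. Clic5, for example, read 9.28 to 9.87 in the Gnaq/Gna11 arrays and 8.0 to 8.64 in the replicate 2 arrays. Against all 6 arrays of replicates 1 and 3 of the other genotypes, the Gnaq/Gna11 arrays were lower throughout for 3 of 10 markers, Hopx, Igfbp2 and Akap5, and for 3.67% of all genes. The replicate 2 arrays were set apart after they had been seen to be lowest for all 10 markers in their groups. The counts of markers follow in part from that pattern, so the shares of all genes are no fair measure for them. These sets of arrays differ in genotype and replicate at once, and the differences were not tested.

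Levels of the markers followed each other from array to array. Over the 45 pairs of markers, Pearson's r across the 12 arrays ran from -0.02 (Aqp5 with Igfbp2) to 0.95, with a median of 0.78. After the group means were taken off, all 45 were positive, from 0.58 to 0.98 with a median of 0.89. The arrays share their groups and the replicate 2 pattern, so these are descriptions. Outside the markers and among 11431 candidate genes, the levels most like those of Hopx over the 12 arrays were those of Cavin2, a caveolar coat protein (r = 0.920), and Pxdn, a peroxidase of the extracellular matrix (r = 0.914). For Igfbp2 they were those of Nt5e, the ectonucleotidase CD73 (r = 0.941), and Dubr, a long noncoding RNA (r = 0.935).

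Other type I genes showed few differences between genotypes. Of 23 measured, 1 was called lower and 0 higher in Gnaq/Gna11 minus Gna11. This was Cyp2b10, a cytochrome P450, at 12.46, 12.58 and 12.39 in Gnaq/Gna11 arrays, against 12.90, 12.76 and 12.86 in Gna11 arrays (-0.37 ± 0.0641 SE, adjusted p = 0.0200). The same gene was the 1 call in Gna12/Gna13 minus Gnaq/Gna11 (0.26, adjusted p = 0.0400), and the list had no call in the other comparisons. Of 24 other settings, the first call held in 16 and the second in 9. Of 12 regulators of type I fate, 0 were called in Gnaq/Gna11 minus Gna11 and 1 in Gna12/Gna13 minus Gnaq/Gna11. Foxp2, a forkhead repressor of the lung epithelium, read 7.47, 6.84 and 7.14 in Gna12/Gna13 arrays, against 8.93, 8.45 and 8.73 in Gnaq/Gna11 arrays (-1.55 ± 0.278 SE, adjusted p = 0.00970), a call that held in 22 of 24 other settings and missed without Gna12/Gna13 replicate 2 (adjusted p = 0.051) and without all 3 replicate 2 arrays (adjusted p = 0.0558). The YAP and TAZ genes Yap1 and Wwtr1 were among the regulators not called in any of the 5 comparisons. Yap1 averaged 8.05 in Gna12/Gna13 arrays, against 7.03 in Gnaq/Gna11 arrays (1.02 ± 0.344 SE, adjusted p = 0.111). Its arrays did not overlap there, as held for 28.4% of all genes. In that comparison 5 of the 12 regulators were higher and 7 lower.

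Of 24 family relatives of the markers, Clic4, another chloride intracellular channel protein, differed most clearly. It read 11.40, 11.77 and 11.56 in Gna12 arrays, against 10.09, 9.57 and 9.68 in Gna11 arrays, and rose by 1.80 ± 0.227 (SE, adjusted p = 0.00505), a call that held in 21 of 24 other settings and missed in 3, among them the fit that includes the mean pan-leukocyte level (1.53, adjusted p = 0.672). In Gna12/Gna13 minus Gnaq/Gna11 cells it was higher by 1.48 (adjusted p = 0.00466), whereas Rtkn, the founding rhotekin, was lower (-1.18, adjusted p = 0.0105). The samples' descriptions carry a position code whose number is 4 wherever Gna12 is deleted and 2 wherever Gna11 is. In both comparisons that number and genotype thus cannot be told apart, for Igfbp2 and Pdpn as for Clic4. The code's letter is B, C or D in single knockouts and E, F or G in double knockouts. Letter and genotype thus cannot be told apart in the double against single comparisons. Type II markers were called lower for 6 of 14 genes in Gna12/Gna13 minus Gnaq/Gna11, where 6.10% of all genes were called in either direction. Among the 6 were the phosphate transporter Slc34a2 (-1.60, adjusted p = 0.00206) and the lipid transporter Abca3 (-0.91, adjusted p = 0.00774). Slc34a2 was also the 1 type II call in Gna12 minus Gna11 (-0.85, adjusted p = 0.0480), which held in 7 of 24 other settings. In that comparison the 20 pan-leukocyte genes were all on the higher side, 7 of them called (2.82% of all genes in either direction), with a median difference of 1.11. With their mean as a covariate Slc34a2 differed by -0.27 (adjusted p = 0.939), and with the Gapdh end difference as a covariate by -0.45 (adjusted p = 0.727). No type II marker was called in either double against single comparison.

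**Figure D4:**
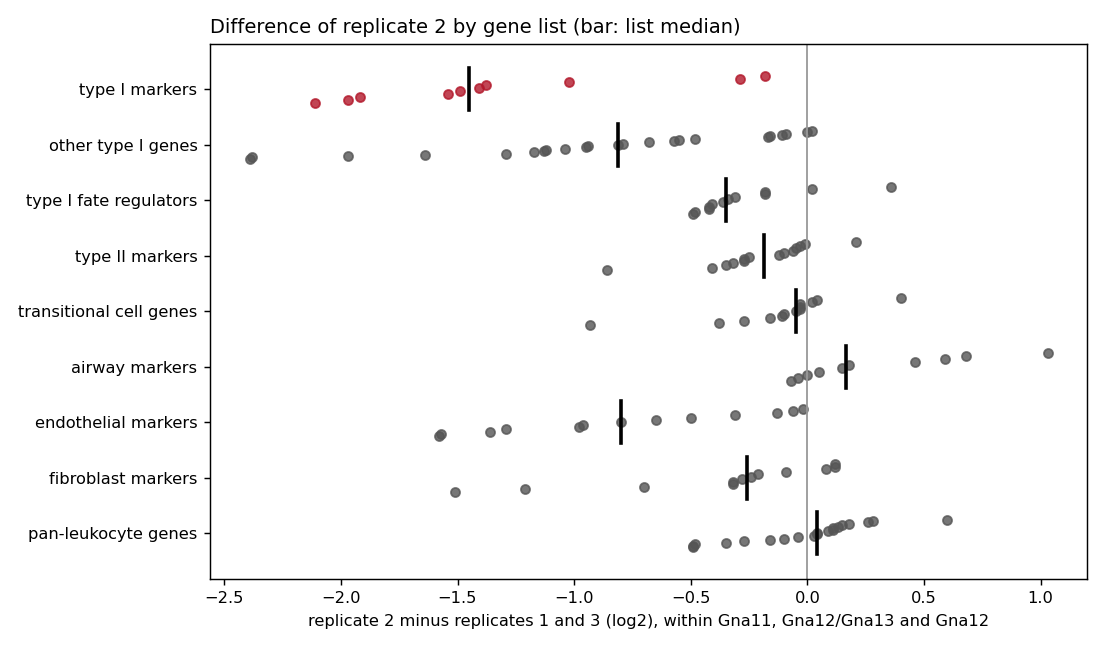
Difference of replicate 2 from replicates 1 and 3 (log2, horizontal axis) within the Gna11, Gna12/Gna13 and Gna12 groups, for each gene (points) of 9 lists, with the list median as a bar. The medians are -1.45 for the 10 type I markers, -0.81 for the other type I genes, -0.80 for endothelial markers, -0.19 for type II markers and 0.04 for pan-leukocyte genes.

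The lists differed in how low replicate 2 lay. Of 23 other type I genes 21 were lower in replicate 2, with a median of -0.81, and 16 had replicate 2 lowest in all 3 groups. The same held for 5.94% of all genes. Col4a4, a basement membrane collagen chain, read 7.22, 6.21 and 7.22 in replicate 2 of Gna11, Gna12/Gna13 and Gna12 cells, against 8.38 to 9.97 in their replicates 1 and 3. Of the 24 family relatives, 15 were lower in replicate 2, with a median of -0.23. Replicate 2 was lowest in all 3 groups for 9 of them, including Pmp22, a tetraspan relative of Emp2 (-1.44). Clic4 (0.03) and Rtkn (0.13) were among those that were not lower. Among other lists the median was -0.19 for 14 type II markers, -0.35 for 12 regulators of type I fate, -0.05 for 13 transitional cell genes, 0.17 for 10 airway markers, -0.26 for 12 fibroblast markers and 0.04 for 20 pan-leukocyte genes. It was 0.05 for 6 mesothelial markers and -0.02 for 4 lymphatic endothelial markers.

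Endothelial markers followed the replicate 2 pattern in part. The replicate 2 difference was negative for all 13, with a median of -0.80, but 0 of 13 were called (0.291% of all genes were called lower). Replicate 2 was lowest in all 3 groups for 3 of 13, against 5.94% of all genes. Their mean level in Gna12/Gna13 cells was 7.55 in replicate 2, against 7.25 in replicate 1 and 8.78 in replicate 3, so replicate 2 was not the lowest array there. Cav1 is also expressed by endothelial cells. The summed linear level of the 13 endothelial markers was 3408 to 4793 in Gnaq/Gna11 arrays, 3095 to 8507 in Gna11 arrays, 3521 to 12530 in Gna12/Gna13 arrays and 3901 to 11940 in Gna12 arrays. Emcn was below the array median in all 12 arrays and Cdh5 in all but 1, while the other 11 were above it in all 12. The part of endothelial RNA in the replicate 2 pattern was not tested.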

How the data were processed

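The 12 samples are arrays of cultured type II alveolar cells, grouped by the genotype in their titles. The authors deposited RMA values (per the submitters' processing notes), taken here as log2 values. Neither the logarithm's base nor the software version is given in the sources used here. Base 2 was assumed because RMA gives it and the values run from 2.13 to 14.1. Apart from 64 control probe sets, 45037 remained of 45101. GEO's platform annotation paired 34945 of them with a single gene, 932 with several genes and 9160 with no gene. Of these symbols, 34741 were matched to RefSeq's GRCm38.p6 gene table, and 204 stayed as the platform gives them. The 1 probe set per gene with the highest mean over the arrays gave 18193 genes.

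Limma 3.58.1 in R 4.3.3 fitted 1 mean per group to the 12 arrays, using eBayes with a trend (residual degrees of freedom 8, prior 3.19). Tests were two-sided and adjusted by Benjamini-Hochberg over all genes. The fit was also run on simulated data with independent noise. Those data held none of the patterns that these arrays share, such as that of replicate 2, so the run does not bear on them. The markers, gene lists and tests were chosen with earlier results of these data known. All 10 markers are named. Of each other list and comparison up to 4 called genes may be named, by smallest adjusted p, or up to 2 with the largest difference, and the genes named for replicate 2 were chosen after their values were seen. Genes of like pattern are the 2 with the highest correlation, for markers whose group means span at least 1 log2 unit. Replicate numbers were not used to pair arrays, since the labels give no pairing and the deviations of same-numbered arrays correlated at -0.04 to 0.27 between groups. The lowest correlation of arrays within a group was 0.963, and no pair was identical (0 pairs). Precision is limited by how many arrays there are. Alternatives were the probe set rule, filter, variance model, array weights, samples in the fit, normalization, block, left-out arrays and covariates. As a check of the labels, arrays lacking a targeted gene lay below all others in 1 of 7 Gnaq, 1 of 2 Gna11, 1 of 5 Gna12 and 1 of 7 Gna13 probe sets, and overlapped them in the rest. These included the probe set that represents each gene, by which no targeted gene was called in any comparison. The labels do not say which exons were deleted, so a probe set outside them checks nothing.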

Additional observations from a re-analysis of the deposited data

Results flagged for a closer look

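Sftpb, a surfactant protein gene of type II cells, was singled out because its arrays moved apart in opposite directions in the 2 lines. It read 12.22, 12.30 and 12.44 in Gnaq/Gna11 arrays, against 11.95, 12.04 and 12.03 in Gna11 arrays. In Gna12/Gna13 arrays it read 11.93, 11.64 and 11.78, against 12.04, 11.95 and 12.10 in Gna12 arrays. The limma test of the difference between the 2 double minus single differences gave 0.56 ± 0.115 (SE) with an adjusted p of 0.0964, which missed the threshold. Over 23 other settings the value was 0.49 to 0.74, with adjusted p of 0.0676 to 0.284. No type I marker met this condition.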

How the results depend on the processing

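The count of markers called between genotypes stayed at 0 in the Gna12/Gna13 minus Gna12, Gna12 minus Gna11 and difference of differences comparisons under every alternative. In Gna12/Gna13 minus Gnaq/Gna11 it was 1, Igfbp2, with array quality weights, with only the arrays compared, without Gna11 replicate 2 and with the Gapdh 3′ minus 5′ covariate. It was 3 with the Eif2s3y covariate. With a replicate block it was also 1, Igfbp2 (adjusted p = 0.0259), and the block changed no other call among the markers. Of all 18193 genes, Gna12/Gna13 minus Gnaq/Gna11 called 369 to 1640 over its 24 other settings. The labels do not say whether replicate numbers pair the arrays, and only some same-numbered arrays deviated together: replicates 2 and 3 of Gna11, Gna12/Gna13 and Gna12 correlated at 0.14 to 0.27, and all other same-numbered pairs at -0.04 to 0.06. Without replicate 2 of Gna11, Gna12/Gna13 and Gna12 it was 1 there and 1 in Gnaq/Gna11 minus Gna11. The cause of these changes was not tested, and all signs listed next are of differences that no test called.

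Gnaq/Gna11 minus Gna11 called 174 genes with array weights, 139 with only the arrays compared, 82 without the 3 replicate 2 arrays, 27 with the pan-leukocyte covariate and 3 with the Gapdh covariate, and 102 to 381 leaving out each array in turn. Gna12/Gna13 minus Gna12 called 0 to 3 leaving out each array. The difference of differences called 35 genes with probe sets averaged, 37 with the filter, 22 without the trend, 28 with weights, 2 without the 3 arrays, 1 with the pan-leukocyte and 0 with the Gapdh covariate, and 0 to 40 leaving out each array. Gna12 minus Gna11 called 22 with only the arrays compared, 18 without the 3 arrays, 0 with the pan-leukocyte and 0 with the Gapdh covariate, and 62 to 736 leaving out each array. Gna12/Gna13 minus Gnaq/Gna11 called 381 without the 3 arrays and 369 to 1259 leaving out each array, with 0 to 1 markers. Markers called lower in replicate 2 numbered 1 with probe sets averaged, 2 without the trend, 0 with the Gapdh covariate, 0 without Gna11 arrays and 1 without Gna12/Gna13 arrays.

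Signs turned as follows. With probe sets averaged, Gnaq/Gna11 minus Gna11 was 0.05 for Emp2, Gna12/Gna13 minus Gna12 was -0.10 for Hopx and -0.01 for Akap5, the difference of differences was 0.01 for Ager and 0.05 for Emp2, Gna12 minus Gna11 was 0.14 for Akap5, and Gna12/Gna13 minus Gnaq/Gna11 was 0.42 for Clic5 and -0.11 for Emp2. With weights, Gnaq/Gna11 minus Gna11 was -0.02 for Pdpn, the difference of differences 0.01 for Ager, and Gna12/Gna13 minus Gnaq/Gna11 -0.07 for Emp2. Without the 3 replicate 2 arrays, Gnaq/Gna11 minus Gna11 was -0.34 for Pdpn, Gna12/Gna13 minus Gna12 was 0.01 for Ager and 0.03 for Aqp5, and Gna12/Gna13 minus Gnaq/Gna11 was 0.02 for Ager, 0.27 for Rtkn2 and 0.44 for Clic5.

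With the pan-leukocyte covariate, Gnaq/Gna11 minus Gna11 was 0.02 for Ager and 0.07 for Aqp5, the difference of differences was 0.06 for Ager, 0.16 for Aqp5 and 0.07 for Rtkn2, and Gna12 minus Gna11 was 0.02 for Ager and 0.40 for Akap5. With the Gapdh covariate, Gnaq/Gna11 minus Gna11 was 0.11 for Ager, 0.12 for Aqp5, 1.14 for Cav1 and Clic5, 0.54 for Rtkn2 and Akap5 and 0.95 for Emp2. Gna12/Gna13 minus Gna12 was then -0.07 for Hopx, -0.03 for Igfbp2, -0.06 for Akap5 and -0.04 for Emp2. The difference of differences was 0.17 for Ager, 0.81 for Pdpn, 0.20 for Aqp5, 0.79 for Cav1, 1.14 for Rtkn2, 1.62 for Clic5, 0.01 for Igfbp2, 0.60 for Akap5 and 0.99 for Emp2. Gna12 minus Gna11 was 0.87 for Hopx, 0.11 for Ager, 1.38 for Cav1, 0.94 for Rtkn2, 1.34 for Clic5, 1.13 for Akap5 and 1.08 for Emp2. With the Eif2s3y covariate, Gnaq/Gna11 minus Gna11 was 0.08 for Ager, 0.10 for Aqp5, 0.93 for Cav1, 0.40 for Rtkn2, 0.64 for Clic5, 0.57 for Akap5 and 0.78 for Emp2. The difference of differences was 0.11 for Ager, 0.28 for Pdpn, 0.13 for Aqp5, 0.24 for Cav1, 0.73 for Rtkn2, 0.68 for Clic5, 0.42 for Akap5 and 0.57 for Emp2. Gna12/Gna13 minus Gnaq/Gna11 was -0.28 for Pdpn, -0.64 for Cav1, -0.44 for Akap5 and -0.77 for Emp2.

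Leaving out each array in turn, Gnaq/Gna11 minus Gna11 spanned -0.34 to 0.42 for Pdpn, -1.31 to 0.23 for Cav1, -0.90 to 0.01 for Akap5 and -0.66 to 0.26 for Emp2. Gna12/Gna13 minus Gna12 spanned -0.08 to 0.57 for Hopx, -0.08 to 0.07 for Ager, -0.14 to 0.13 for Aqp5, -0.69 to 0.37 for Rtkn2, -0.07 to 0.99 for Igfbp2, -0.22 to 0.82 for Akap5 and -0.14 to 0.67 for Emp2. The difference of differences spanned -0.10 to 0.05 for Ager, -0.85 to 0.13 for Pdpn, -0.22 to 0.04 for Aqp5, -0.97 to 0.21 for Rtkn2 and -0.90 to 0.05 for Emp2. Gna12 minus Gna11 spanned -1.42 to 0.11 for Cav1, -1.16 to 0.03 for Rtkn2, -0.54 to 0.36 for Akap5 and -0.79 to 0.16 for Emp2. Gna12/Gna13 minus Gnaq/Gna11 spanned -0.12 to 0.02 for Ager, -0.51 to 0.27 for Rtkn2, -0.67 to 0.44 for Clic5 and -0.13 to 0.54 for Emp2. The replicate 2 difference stayed negative for all 10 markers under its 10 alternatives.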
